A study of Rattus norvegicus with 15 samples.

Results

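The extracellular matrix genes of the rat olfactory epithelium were followed here: the collagens, the laminins, the fibulins and fibronectin, and the proteases and inhibitors that turn these proteins over. Members were the array probes whose gene name, after removal of the endings _predicted and _mapped, was that of a collagen alpha chain, a laminin chain, a matrix metalloproteinase (Mmp), a tissue inhibitor of metalloproteinases (Timp), an Adamts protease, a fibulin (Fbln) or fibronectin (Fn1). The rule found 128 probes of 88 gene names among the 41012 probes of the array. It also took in 2 probes of Col4a3bp, a ceramide transfer protein that bears a collagen's name but is no matrix protein, and these are kept apart below.

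The tissue was the olfactory epithelium of 4 male and 4 female Brown Norway rats aged 6 weeks, with no treatment and no altered gene. Males were rats 1, 2, 5 and 6 and females were rats 3, 4, 7 and 8, and each nostril, A or B, was hybridized to an Agilent array of its own, except that male 1 had nostril A alone. The 15 arrays lay on 4 slides, with males 1 and 2 and nostril A of female 3 on slide 1, nostril B of female 3 and female 4 on slide 2, males 5 and 6 on slide 3, and females 7 and 8 on slide 4. The study bought its rats from 2 suppliers, which the labels do not tie to single animals, and suppliers are not compared.

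Collagens are secreted triple helices. Fibrillar types form the cables of connective tissue, bone and cartilage, type IV forms the mesh of basement membranes, and laminins, built from an alpha, a beta and a gamma chain, are the cell-facing part of those membranes. Matrix metalloproteinases cut these proteins outside the cell and Timps block them. In the nose the olfactory epithelium rests on a basement membrane above a lamina propria of fibroblasts, glands, vessels and nerve bundles, and under that lie the bone and cartilage of the turbinates and septum.

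The probes on which the results turn are shown first. Each is an oligonucleotide of 60 bases, given 5′ to 3′ as the scanner files list it, with its position in build rn3. The wide-ranging pair of Col1a1 probes, the beta chain of laminin 1 that was low in male 1, and the metalloproteinase with the lowest adjusted p are in lower case throughout. In the Col9a1 probe the capitals mark codons of the form GGN at every ninth base, the trace of the glycine that recurs along a triple helix. Of 52 collagen probes this was the only one with such codons throughout (1.92%, against 0.0122% of all probes).
Col1a1 A_44_P419137, chr10:83652273-83652332, plus strand: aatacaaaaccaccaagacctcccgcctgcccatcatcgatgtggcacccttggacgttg
Col1a1 A_44_P350521, chr10:83652326-83652385, plus strand: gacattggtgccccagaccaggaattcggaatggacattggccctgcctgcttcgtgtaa
Col9a1 A_44_P311515, chr9:22978230-22984184, plus strand: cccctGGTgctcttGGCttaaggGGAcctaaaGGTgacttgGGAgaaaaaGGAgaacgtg
Mmp23 A_42_P667600, chr5:172497527-172497586, minus strand: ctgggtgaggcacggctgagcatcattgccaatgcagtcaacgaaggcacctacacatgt
Lamb1 A_43_P18993, chr6:49181266-49183037, plus strand: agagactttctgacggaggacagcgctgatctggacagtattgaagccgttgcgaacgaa

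The Col9a1 and Lamb1 positions span far more of the genome than the 60 bases of the probe, as a probe that crosses an intron does. The array annotation names the gene and the position of a probe but not the exon.

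Throughout, the log2 signal of a probe is its processed intensity over the median of its array, so 0 is the median probe, and values under 0.1 of that median were set to -3.32. Levels of different probes are not compared with each other. Detection means that the scanner software called the spot well above background. Each array detected 26233 to 28741 probes, and 0 spots of the members were saturated. The epithelium carried its own markers, since the 8 tested probes of olfactory neuron genes averaged 7.10 to 7.39 on the log2 scale per rat and the 4 of sustentacular (supporting) cell genes 9.85 to 10.2. The slides, the red cell genes and the bone and cartilage genes also differed between rats, and these values are given beside the results they touch.

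Of the 128 matrix probes, 88 (68.8%) were detected on at least 11 of the 15 arrays, which is the study's class of expressed transcripts, against 65.1% of all probes, and 85 (66.4%) on all 15, against 61.3%. A further 19 were detected on 1 to 10 arrays and 21 (16.4%) on none, against 23.8% of all probes. By role, all 7 probes of fibulins and fibronectin, 18 of 20 of fibrillar collagens, 10 of 12 of fibril-associated collagens, 10 of 11 of other network and filament collagens, 16 of 21 of laminins, 4 of 6 of type IV collagens and 2 of 3 of transmembrane collagens were expressed. Of the proteases, 12 of 26 metalloproteinase and 4 of 17 Adamts probes were, and of their inhibitors all 3 Timp probes. These shares were not tested against each other.

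**Figure D1:**
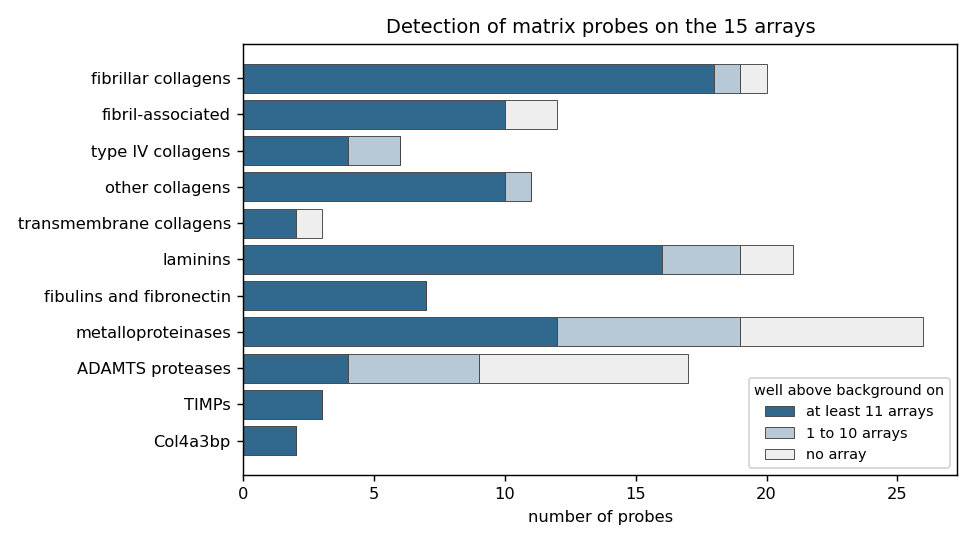
Number of matrix probes (horizontal axis) by role (vertical axis), divided by the number of the 15 arrays on which a probe was well above background. All 7 probes of fibulins and fibronectin and 18 of 20 of fibrillar collagens were expressed, and 7 of 26 metalloproteinase probes and 8 of 17 Adamts probes were detected on no array.

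Among the proteases, the probes of 6 of 23 metalloproteinase genes were on no array, namely the interstitial collagenases Mmp1a and Mmp1b, enamelysin Mmp20, and Mmp21, Mmp25 and Mmp27. The same held for 7 of 16 Adamts genes, Adamts1, Adamts3, Adamts6, Adamts8, Adamts16, Adamts17 and Adamts20. The expressed metalloproteinases were Mmp2 and Mmp9 (the gelatinases), Mmp13 (collagenase 3), Mmp12 (macrophage elastase), the membrane-bound Mmp14, Mmp15, Mmp16 and Mmp24, and Mmp19 and Mmp23. The expressed Adamts genes were Adamts5, an aggrecanase, and Adamts7, Adamts9 and Adamts19. Among the collagens, both probes of Col14a1 and the only probe of Col17a1, the hemidesmosome collagen of basal keratinocytes, were on no array.

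Genes with several probes show how far such a call rests on the probe. Col11a1, Lama2 and Lamc3 each had 1 probe on no array, although 3 other probes of Col11a1 and 2 other probes of Lama2 were detected on all 15 arrays, and Adamts19 and Mmp19 likewise had 1 silent and 1 expressed probe. A probe on no array therefore gives only that these 60 bases gave no signal above background.

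Many collagenase and stromelysin genes lie side by side, and in rn3 the array places 10 metalloproteinase genes between positions 4168554 and 4533706 of chromosome 8. Of their 10 probes, those of Mmp13 and Mmp12 were detected on all 15 arrays, and both lie at the same end of the cluster. Probes of Mmp3, Mmp7, Mmp8 and Mmp10 were detected on 1 or 2 arrays, and those of Mmp1a, Mmp1b, Mmp20 and Mmp27 on none. The sequences before the starts of Mmp12 and Mmp13 are set beside that of Mmp3, because the expressed and the near-silent genes carry the same letters there. They are the last 120 bases before the transcript start in RefSeq's GRCr8 promoter windows, plus strand, 5′ to 3′, with TGANTCA, the letters that AP-1 factors recognise, and the TATA box TATAAA in capitals.
Mmp13, chr8:12782709-12782828: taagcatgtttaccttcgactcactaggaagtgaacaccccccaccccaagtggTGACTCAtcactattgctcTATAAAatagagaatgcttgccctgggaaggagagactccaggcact
Mmp12, chr8:12866532-12866651: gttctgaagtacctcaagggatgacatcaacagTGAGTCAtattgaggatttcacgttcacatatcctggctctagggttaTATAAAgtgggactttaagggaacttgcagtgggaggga
Mmp3, chr8:12925161-12925280: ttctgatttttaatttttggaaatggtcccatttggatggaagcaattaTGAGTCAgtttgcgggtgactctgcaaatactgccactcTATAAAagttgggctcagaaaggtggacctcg

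Both strands were searched over the 250 bases before each start (TGANTCA is its own reverse complement, so a match counts once, and the motifs do not overlap here). RefSeq windows were found for 9 of the 10 cluster genes, and 6 of them, Mmp3, Mmp7, Mmp10, Mmp12, Mmp13 and Mmp20, held both motifs, against 1.02% of the 33469 windows of all genes. TGANTCA was in 6.34% and TATAAA in 12.9% of all windows, each with or without the other. These matches describe letters and not bound sites, and Mmp13 and Mmp12, detected on all arrays, share them with Mmp20, detected on none.

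For the tests, probes detected on at least 7 arrays were kept, which left 89 of the 128 members and 27574 of all probes with a value on every array. The filter did not use sex, rat or nostril. The 89 probes include several of the same gene, which are not independent of each other.

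Individual rats of the same sex were compared by limma's F-test, with the difference between the nostrils of a rat as the error. Past the study's threshold of 1% lay 2 of the 89 matrix probes (2.25%, against 2.79% of all tested probes). Past 5% lay 28 probes of 20 genes (31.5%, against 16.1% of all tested probes), and at an unadjusted p under 0.05 there were 54 (60.7%, against 37.1%). Without female 8 there were 11 past 5% (12.4%, against 9.3% of all), without female 7 there were 14 (15.7%, against 7.11%), without male 5 there were 15 (16.9%, against 11.3%) and without female 4 there were 36 (40.4%, against 11.8%). With normexp background correction 0 passed (against 0.671%), and with no detection filter 6 of 127 did (4.72%, against 8.58%), so that the members' share was then below that of all probes. Ranges here and below run over all 8 rats, whereas the F-test compares rats of the same sex only. The median range over the 8 rats was 0.86 log2 units for the matrix probes and 0.47 for all tested probes. The nostrils of a rat differed more too, with a median within-rat SD of 0.24 for matrix probes and 0.12 for all.

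Fibrillar collagens made up the largest share. Of their 18 tested probes, 13 probes of 7 genes passed 5% between rats (Col1a1, Col1a2, Col3a1, Col5a1, Col5a2, Col11a1 and Col11a2), with a median range of 1.60 log2 units. The other groups contributed fewer, and laminins (18.8%), fibril-associated collagens (20%) and Adamts proteases (20%) lay near the 16.1% of all tested probes: 4 of 12 metalloproteinase probes, 3 of 16 laminin probes, 2 of 10 fibril-associated collagen probes, 2 of 7 fibulin and fibronectin probes, 1 of 10 other network or filament collagens, 1 of 5 Adamts probes, 1 of 3 Timps, and 0 of 4 type IV and 0 of 2 transmembrane collagen probes. The last of the 28 was 1 of the 2 Col4a3bp probes.

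**Figure D2:**
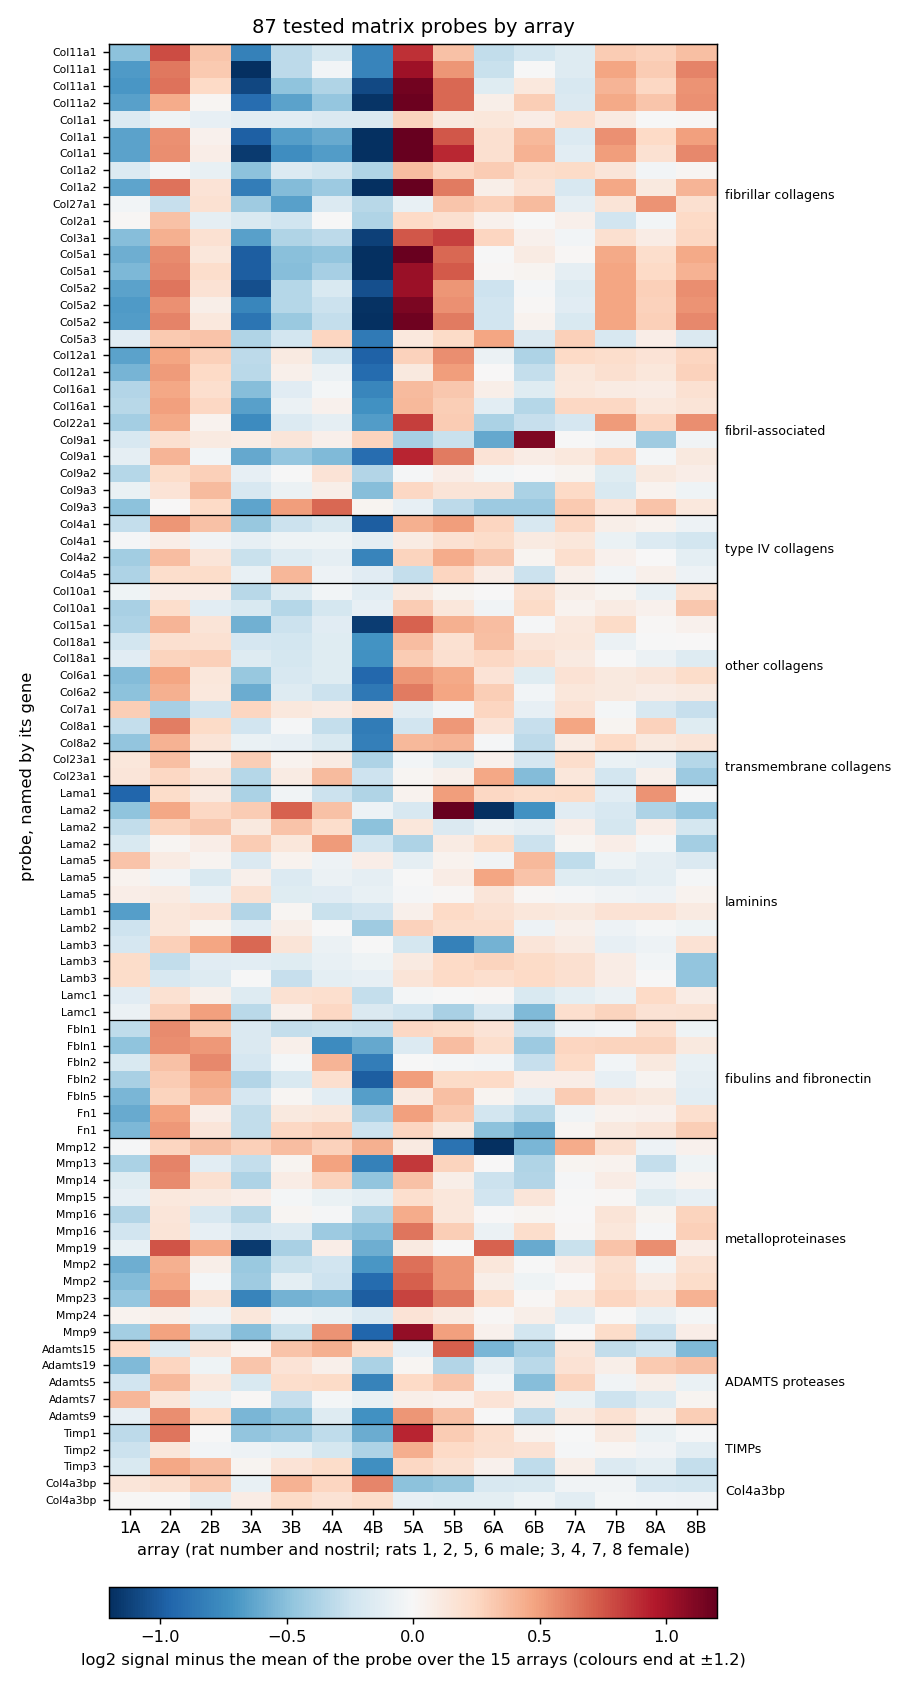
Log2 signal of tested matrix probes (rows, by role) on each of the 15 arrays (columns), as the difference from the mean of the probe. Most fibrillar collagen rows are red in both nostrils of male 5 and blue in male 1 and females 3 and 4. Their median range over rats was 1.60, against 0.54 for laminins.

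The alpha-1 chain of type I collagen, the main protein of bone and tendon, shows the pattern at its widest. Probe A_44_P419137 read 8.59 in male 1, 9.56 in male 2, 10.38 in male 5 and 9.54 in male 6. In the females it read 8.29 in rat 3, 8.16 in rat 4, 9.42 in rat 7 and 9.62 in rat 8. Male 5 stood above every other rat in both nostrils, at 10.63 and 10.14, and male 1 and females 3 and 4 stood below the other 5 rats. The highest rat, male 5, exceeded the lowest, female 4, 4.66-fold. That pair crosses sexes and slides and is not among the contrasts of the F-test between rats of the same sex (limma, adjusted p = 0.016). On their shared slide, male 5 minus male 6 was 0.84 (limma with slide as a block, adjusted p = 0.42).

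Type III collagen, which is laid down with type I in soft connective tissue, had the same highest rat and the same 3 lowest. Col3a1 read 7.57, 8.38, 8.86 and 8.23 in males 1, 2, 5 and 6, and 7.57, 7.36, 8.16 and 8.24 in females 3, 4, 7 and 8 (adjusted p = 0.0241). The minor fibrillar chain Col5a1, which is built into type I fibrils, read 4.15, 5.08, 5.67 and 4.78 in the males and 3.99, 3.87, 4.97 and 5.07 in the females with probe A_43_P13273 (adjusted p = 0.0215). Col11a2, a chain of the thin fibrils of cartilage, spanned 1.75 log2 units with the same highest rat and the same 3 lowest (adjusted p = 0.0194). Of the fibrillar collagen genes, Col2a1, Col5a3 and Col27a1 did not pass 5% (adjusted p = 0.555, 0.804 and 0.0625). The range of Col2a1, the main collagen of cartilage, was 0.43 with probe A_43_P15252, and Col27a1 was highest in female 8 and not in male 5, at 2.61 against 2.36.

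Mmp23, a small membrane-anchored metalloproteinase, had the lowest adjusted p of the members (0.00646). It read 2.19, 3.01, 3.38 and 2.77 in males 1, 2, 5 and 6 and 1.98, 1.89, 2.84 and 2.95 in females 3, 4, 7 and 8. Male 5 was again highest and male 1 and females 3 and 4 lowest, by up to 2.8-fold. With a rat left out the adjusted p of Mmp23 in the limma F-test was 0.00686 to 0.0227. With normexp background correction it was 0.0575, and with slide as a block 0.188, so that it did not pass 5% in either. Mmp2, gelatinase A, had the same highest rat and the same set of lowest rats with both of its probes, as did Mmp16 with probe A_44_P142265 (adjusted p = 0.0402). The Mmp2 probes had ranges of 1.18 and 1.21 (adjusted p = 0.02 and 0.0425). The collagenase Mmp13, made by osteoblasts and hypertrophic chondrocytes, and the gelatinase Mmp9, made by osteoclasts and neutrophils, were also highest in male 5, at 8.98 and 4.91, but their nostrils differed by SDs of 0.45 and 0.50 and they did not pass 5% (adjusted p = 0.534 and 0.402).

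**Figure D3:**
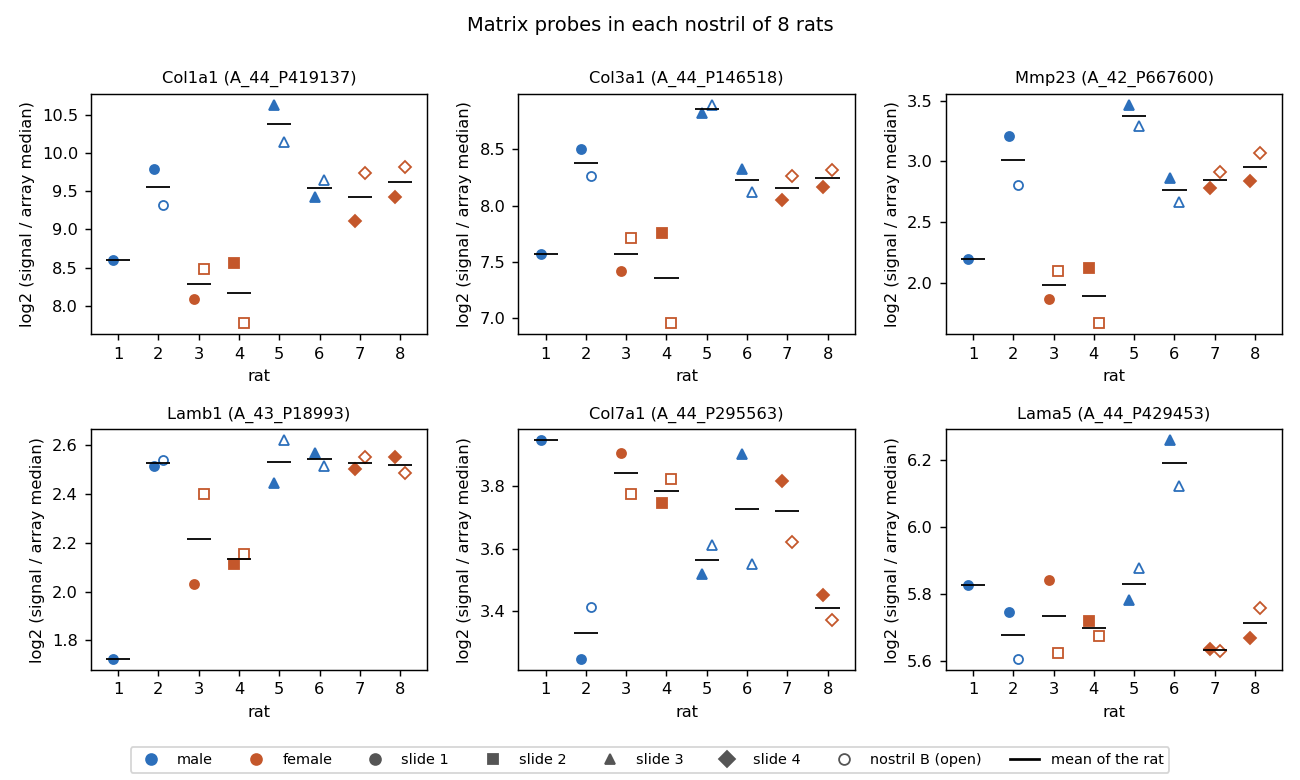
Log2 signal over the array median (vertical axis) in each nostril of rats 1 to 8 (horizontal axis) for 6 matrix probes. Points are arrays (blue male, orange female, open nostril B, shape by slide) and lines are rat means. Col1a1, Col3a1 and Mmp23 were highest in male 5, whereas Lamb1 was lowest in male 1, Col7a1 was lowest in male 2 and Lama5 was highest in male 6.

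Counted over the list, male 5 was the highest of the 8 rats in 45 of 89 probes (50.6%), against 15.1% of all tested probes, and male 2 in 21 (23.6%), against 8.52%. Male 1 and females 3 and 4 were the 3 lowest rats in 44 probes (49.4%), against 8.04% of all tested probes, and both held together in 33 (37.1%), against 3.47%. This order was chosen after the values were seen, so its counts are a description and no test was made of them. Male 1 and females 3 and 4 lay on slides 1 and 2, and male 5 on slide 3. Male 5 shared no slide with these 3 rats, so their differences from it cannot be told apart from slide. Among the 28 probes past 5%, 18 had male 5 highest and those 3 rats lowest, all 13 fibrillar collagen probes among them.

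Other members went their own way. Col7a1, the anchoring fibril under stratified epithelia, read 3.95, 3.33, 3.57 and 3.73 in males 1, 2, 5 and 6 and 3.84, 3.79, 3.72 and 3.41 in females 3, 4, 7 and 8 (adjusted p = 0.0396). It was highest in male 1 and lowest in male 2 and female 8. Lamb3, a laminin chain of the same anchoring structures, was low in those rats as well with probes A_44_P1034201 and A_44_P1034209, at 4.28 and 2.97 in male 2 and 4.23 and 2.91 in female 8, but did not pass 5% (adjusted p = 0.0629 and 0.121). Col4a3bp probe A_44_P255449 ran the other way from the fibrillar collagens, at -0.10 in male 5 and 0.79 in female 4 (adjusted p = 0.0333).

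Of the laminins, Lamb1, the beta-1 chain of most basement membranes, came closest to the study's threshold (adjusted p = 0.0134). It read 1.72 in male 1, 2.22 and 2.13 in females 3 and 4, and between 2.52 and 2.54 in the other 5 rats. Without male 1 its adjusted p was 0.0968, and with normexp background correction 0.367. Lama5 passed 5% with 1 of 3 probes, A_44_P429453, which read 6.19 in male 6 and 5.63 to 5.83 in the other rats (adjusted p = 0.0328). Lama1, Lama2, Lamb2, Lamb3 and Lamc1 had no probe past 5%.

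Further collagens of the fibril surface and of fine networks lay near the threshold. Col12a1, which coats type I fibrils, was lowest in male 1 with both probes, at 0.27 and 0.37, and reached 1.33 in male 5 (A_44_P473152, adjusted p = 0.0391). The microfibril chains Col6a1 and Col6a2 ran from 3.74 and 0.36 in female 4 to 4.78 and 1.46 in male 5 (adjusted p = 0.0527 and 0.0511), and Col8a2, a network collagen, from -1.01 in female 4 to -0.11 in male 5 (0.0517). Col22a1, a collagen of tissue junctions, reached 5.38 in male 5 and 5.22 in female 8 (adjusted p = 0.0833). Col16a1 and Col9a2 were high in male 2, at 7.52 (A_43_P16491) and 6.09, while Col10a1, the collagen of hypertrophic cartilage, spanned 0.35 and 0.60 with its 2 probes.

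The remaining roles gave single genes. Timp2, the inhibitor that also helps activate Mmp2, was highest in male 5 at 9.40 and lowest in female 4 at 8.77 (adjusted p = 0.0225). Timp1 spanned more, from 6.06 in female 3 to 7.13 in male 5, but with a wider nostril SD of 0.26 (adjusted p = 0.102). Fbln1, a fibulin of basement membranes and elastic fibres, was highest in male 2 with both probes (adjusted p = 0.0473 and 0.0333). Adamts9 ran from 2.16 in female 3 to 3.12 in male 5 (adjusted p = 0.033), and Col15a1, a basement membrane collagen and the widest of its role, from 1.48 in female 4 to 2.69 in male 5 (adjusted p = 0.12). Among the other metalloproteinases, the membrane-type Mmp14 ran from 6.53 in male 6 to 7.21 in male 2 (adjusted p = 0.281) and Mmp24 spanned only 0.25. Mmp12, the macrophage elastase, had another order, with 0.52 in male 6 and 1.03 in male 5 and between 1.41 and 1.77 in the other 6 rats (adjusted p = 0.116).

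The basement membrane genes Col4a1 and Col4a2 lie head to head and share the sequence between their starts, which is shown whole. The Col4a2 probe and Col4a1 probe A_44_P1021644 were both highest in male 5 and lowest in female 4, as were Col3a1 and Mmp23. Among the 89 tested matrix probes, male 5 was highest in 45 and female 4 lowest in 35. The other Col4a1 probe was highest in male 6 and lowest in female 8. Whether the shared sequence bears on the order of rats was not tested.
Col4a1 and Col4a2, GRCr8 chr16:84885521-84885596, plus strand: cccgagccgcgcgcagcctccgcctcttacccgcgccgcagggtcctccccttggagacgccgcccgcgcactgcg

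Neither TATAAA nor TGANTCA occurs on either strand in these 76 bases. Col4a1 and Col4a2 spanned 1.05 (probe A_44_P1021644) and 0.81 and did not pass 5% (adjusted p = 0.0851 and 0.114). Just past and just short of 5% lay Col5a2 probe A_44_P392846 (0.0482) and Col6a2 (0.051), and on either side of 1% Col1a1 probe A_44_P238421 (0.00986) and Lamb1.

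Slide and rat were partly joined, so the rats that shared a slide were compared with each other in a fit with slide as a block. In that fit 0 of the 89 matrix probes passed 1% (0.00363% of all tested probes did) and 0 passed 5% (0.116% of all), whereas 39 had an unadjusted p under 0.05 (43.8%, against 17.1%). The 4 contrasts behind it were unequal. Male 2 exceeded male 1 in 78 of the 89 probes (87.6%, against 55.4% of all tested probes), with a median for male 1 minus male 2 of -0.60 log2 units against -0.02, and 44 probes (49.4%, against 14.1%) had an unadjusted p under 0.05. Male 5 exceeded male 6 in 69 probes, leaving 20 lower (22.5%, against 47.3% of all), by a median of 0.23 against 0.01, and 30 probes (33.7%, against 10%) had an unadjusted p under 0.05.

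In the female pairs fewer probes reached an unadjusted p under 0.05 than among all probes, and the median over all members was nearly as far from 0 for females 3 and 4 as for males 5 and 6, but not for each role. Females 3 and 4 differed at an unadjusted p under 0.05 in 4 probes (4.49%, against 10.2%), and 16 probes were lower in female 3 (18%, against 33.4% of all), with a median for female 3 minus female 4 of 0.20 against 0.07. Females 7 and 8 differed in 6 probes (6.74%, against 14.4%), with 43 lower in female 7 (48.3%, against 34.9%) and a median of 0.01 against 0.06. The fibrillar collagens had a median of -0.94 for male 1 minus male 2 and 0.81 for male 5 minus male 6. It was 0.25 for female 3 minus female 4 and -0.19 for female 7 minus female 8. Only nostril B of female 3 lay on slide 2 with female 4, so their contrast rests on that 1 array of female 3. Whether the male pairs differed more than the female pairs was not tested.

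**Figure D4:**
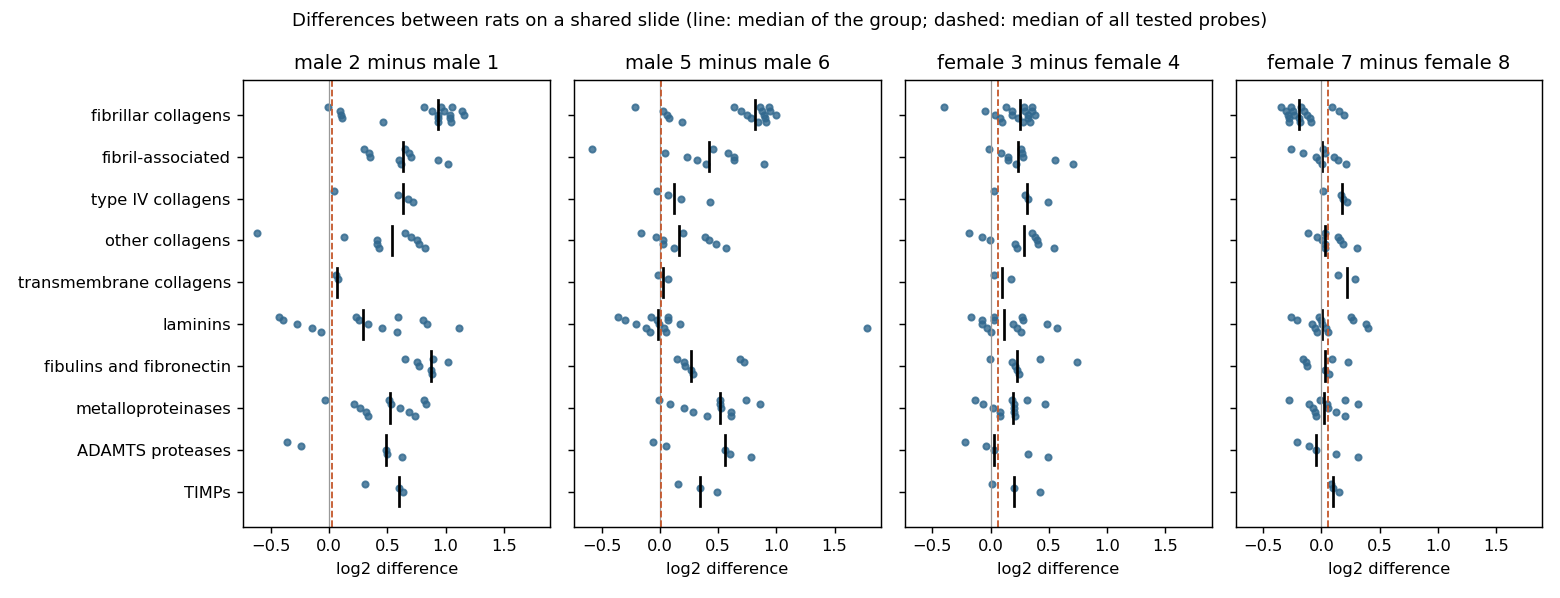
Log2 difference (horizontal axis) of tested matrix probes between the rats of a shared slide, by role (vertical axis). Black lines are medians of a role and the dashed line is the median of all tested probes. Fibrillar collagens lie to the right in both male panels, drawn as male 2 minus male 1 and male 5 minus male 6 (median 0.81). The median was -0.94 for male 1 minus male 2 and -0.19 for female 7 minus female 8.

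Within a slide, 1 matrix probe (1.12%, against 0.0762% of all tested probes) passed 5% in the contrast of males 1 and 2, and 0 passed 1% (against 0.0181%). It was Lamb1, with male 1 minus male 2 at -0.80 ± 0.09 (SE, adjusted p = 0.0207). Fn1, the adhesive glycoprotein fibronectin, was lower in male 1 than in male 2 by similar amounts with both probes (-0.88 and -0.89), and higher in male 5 than in male 6 (0.72 and 0.69), without passing 5%. Male 1 was represented by 1 array, so its own error was not measured and it was taken to vary like the other rats.

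Probes of the same gene could give a like order of rats and very different sizes. Over the 8 rats the Col1a1 probes A_44_P419137 and A_44_P350521, which lie next to each other, spanned 2.22 and 1.99 log2 units. The third, A_44_P238421 at chr10:83652547-83652606, spanned 0.37, with 9.60, 9.69, 9.96 and 9.88 in males 1, 2, 5 and 6 and 9.63, 9.59, 9.92 and 9.77 in females 3, 4, 7 and 8. That narrow probe had the smaller nostril SD, 0.05 against 0.36, and a lower adjusted p (0.00986), which was 0.0114 to 0.0379 with a rat left out. The Col1a2 probes likewise spanned 0.64 (A_43_P12783) and 1.75 (A_44_P458851).

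**Figure D5:**
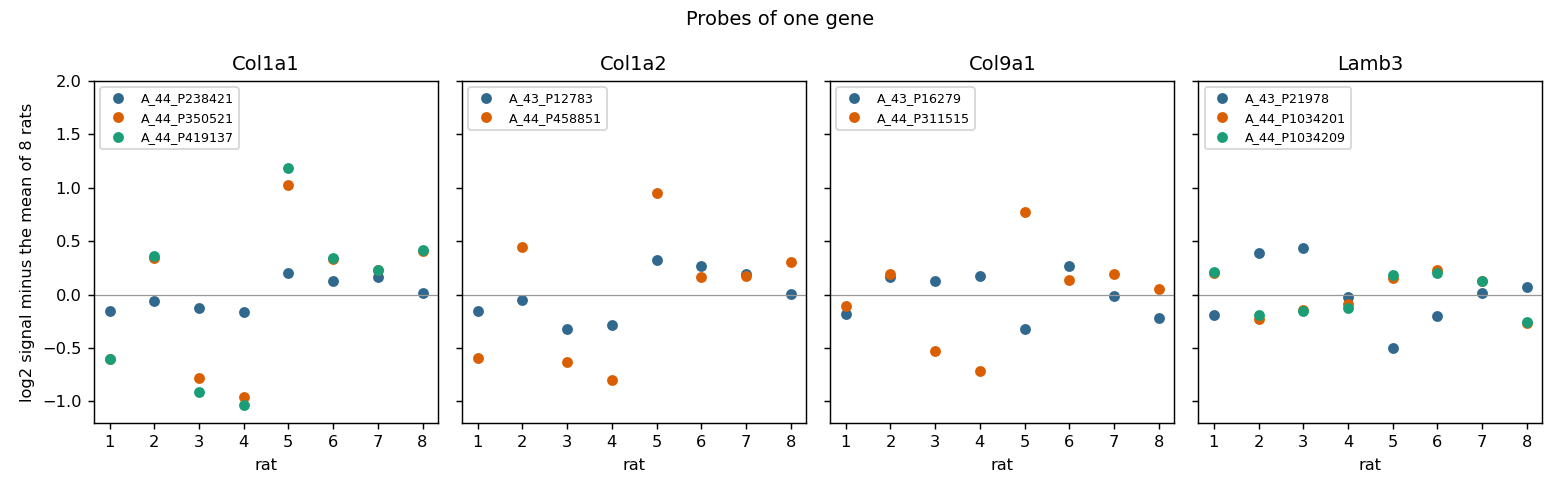
Log2 signal of each tested probe of Col1a1, Col1a2, Col9a1 and Lamb3 minus its mean over the 8 rats (vertical axis), by rat (horizontal axis). The Col1a1 and Col1a2 probes put male 5 highest at different spans (0.37 to 2.22 for Col1a1), and 1 probe of Col9a1 and 1 of Lamb3 depart from the others.

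Agreement was close for Col5a1, Col5a2, Col12a1 and Mmp2, whose tested probes spanned similar ranges (1.69 and 1.80 for Col5a1, 1.48 to 1.64 for Col5a2, 0.94 and 1.06 for Col12a1, 1.18 and 1.21 for Mmp2), whereas the Col11a1 probes, all highest in male 5 and lowest in female 3, spanned 1.17 to 1.74. Agreement was poor for Col9a1, a collagen that coats cartilage fibrils: probe A_44_P311515, in the triple helix, read 1.53 in male 5 and 0.04 in female 4 (adjusted p = 0.0152), whereas A_43_P16279 read -1.17 and -0.68 in the same rats, and its nostrils in male 6 differed from -1.45 to 0.28. Lamb3 probe A_43_P21978 was lowest in male 5 at -1.44, where the other 2 tested Lamb3 probes were above their means. The Lama2 probes spanned 0.44, 0.59 and 1.78. The Lama5 probes, at 0.20 to 0.56, had the narrowest spans of these genes.

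Of 25 tested probes of the collagen maturation list, 11 (44%, against 16.1% of all tested probes) passed 5% and 2 (against 2.79% of all) passed 1%, and 18 were highest in male 5 (against 15.1%) and 13 had male 1 and females 3 and 4 lowest (against 8.04%). The collagen chaperone Serpinh1 (Hsp47) read 6.66, 7.56, 8.03 and 7.34 in males 1, 2, 5 and 6 and 6.04, 5.92, 7.31 and 7.42 in females 3, 4, 7 and 8 (adjusted p = 0.00526). P4ha1, a subunit of prolyl 4-hydroxylase, and Leprel2, a prolyl 3-hydroxylase, were also highest in male 5, at 4.29 and 1.91 (adjusted p = 0.00764 and 0.0116). With slide as a block 0 of the 25 passed 5%, and Serpinh1 and P4ha1 were at an adjusted p of 0.224 and 0.255. Among proteoglycans and matrix glycoproteins 13 of 31 probes (41.9%, against 16.1% of all) passed 5% and 4 passed 1% (against 2.79%), and with slide as a block 1 passed 5% (against 0.116%), Tgfbi A_44_P620106 (adjusted p = 0.0424). Comp, a cartilage glycoprotein, ran from 0.83 in female 3 to 2.30 in male 5, and Tgfbi, a collagen-binding protein, from 4.38 in male 1 to 5.37 in male 5 (A_44_P620106), while the cartilage protein Matn1 had another order, with 4.05 in male 1 and 2.84 in female 8.

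The other lists lay nearer the 16.1% of all probes, and 0 of their probes passed 5% with slide as a block, as was the case for the marker lists given next. Past 5% were 2 of 12 probes of further basement membrane genes (16.7%, the matrix-binding Sparc and nidogen Nid2, with Smoc2 next), 1 of 15 of elastic fibres (6.67%, Mfap5, with Mfap4 and Ltbp1 next), 4 of 26 of matrix receptors (15.4%, among them the collagen receptor Itga2, Sdc1 and Bcam), and 5 of 26 of other proteases and inhibitors (19.2%, among them both Serpine2 probes and Adam8). Serpine2, a protease inhibitor, was highest in female 3, at 5.72 with probe A_44_P409694.

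Markers of bone cells and of vessels had much the same order of rats, with male 5 highest and male 1 and females 3 and 4 lowest in the means of the osteoblast, osteoclast and endothelial lists. Of the osteoblast and osteocyte list 8 of 10 tested probes were highest in male 5, and the mean of the list ran from 2.87 (male 1) to 4.00 (male 5) in males and from 3.07 to 3.58 in females. Ibsp, bone sialoprotein, read 7.06, 8.15, 8.89 and 8.08 in males 1, 2, 5 and 6 and 7.26, 7.37, 8.21 and 8.45 in females 3, 4, 7 and 8, and was the only one of the 10 past 5% (adjusted p = 0.0319), while Sp7 was detected on no array. All 5 tested osteoclast probes were highest in male 5, with list means of 4.03 to 5.14 in males and 4.07 to 4.64 in females, 0 of them past 5%, and Dcst1 on only 3 arrays. Of 8 chondrocyte probes 4 passed 5% (50%, against 16.1% of all) and 3 passed 1% (against 2.79%). These were Matn1, Comp, Lect1 and Agc1, of which Matn1, Comp and Agc1 are also on the list of glycoproteins. The chondrocyte list had means of 0.64 to 1.14 in males and 0.46 to 0.97 in females, and both probes of Matn3 were on at most 2 arrays. Its mean was also lowest in male 1 and females 3 and 4, at 0.64, 0.46 and 0.57. It was highest in male 2, at 1.14 against 1.04 in male 5.

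The fibroblast list averaged 2.45 to 3.25 in males and 2.66 to 3.06 in females, with male 1 lowest and male 2 highest. Endothelial and pericyte probes averaged 4.15 in male 1, 4.70 in males 2 and 5 and 4.47 in male 6, and 4.27, 4.14, 4.50 and 4.53 in females 3, 4, 7 and 8, with 1 of 6 past 5% (16.7%, Cspg4). The widest differences were in red cell probes, of which 4 of 5 passed 5% (80%) and 2 passed 1%, but in another order, from 5.31 in female 7 to 8.58 in male 6. Basal cell probes passed 5% in 3 of 4 (75%). Neutrophil probes ran from 1.28 in female 3 to 2.78 in male 2. Macrophage probes averaged 3.59 to 4.08, skeletal muscle probes -0.68 to 1.13, ensheathing or Schwann cell probes 3.49 to 4.53 and basal cell probes 2.04 to 2.62 over the 8 rats. The part of bone, cartilage or connective tissue carried along in the dissection in the differences between rats was not tested. In tissue of this kind, fewer cells of a type and less RNA per cell cannot be told apart.

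Between the sexes, limma on the 8 rat means called 0 of the 89 matrix probes at 1% (against 0.0434% of all tested probes) and 0 at 5% (against 0.0724%). At an unadjusted p under 0.05 there were 5 (5.62%, against 17.1% of all), and the methods' t-test on the same values also gave 0 at 1%, with 5 at an unadjusted p under 0.05 (against 16.2% of all). The median difference, female minus male, was -0.16 log2 units for the matrix probes and 0.01 for all, and 70 of the 89 were lower in females, against 47.9% of all. The members' median deviation had an SD of 0.22 between rats of a sex. That is a spread of single rats and not the error of a difference between the sex means, and the probes are not independent of each other. The median was -0.07 without male 5 and -0.24 without male 1. Only slide 1 held both sexes, with a single female array (nostril A of female 3) beside 3 arrays of males 1 and 2, so a sex difference with slide as a block rests on that array. For the median it was -0.33.

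Of these probes, 4 are given as values, not as calls. Adamts7 differed by -0.25 ± 0.08 (SE, female minus male, limma adjusted p = 0.175), Col18a1 by -0.32 (A_44_P1004324, 0.238) and Col5a3 by -0.28 (0.266). Col9a3 differed by 0.45 (A_44_P787524, 0.214). With slide as a block, and so from that 1 female array, these differences were -0.12 for Adamts7, -0.30 for Col18a1, -0.53 for Col5a3 and -0.54 for Col9a3. Adamts7, picked here for its low p, read 6.25 to 6.61 in males and 6.05 to 6.16 in females, and the sexes overlapped for the other 3 probes. How many of all tested probes separated the sexes was not counted, so the separation of this picked probe is no result.

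Detection by sex was uneven for few probes. Of the 22 members detected on 1 to 14 arrays, Mmp11 (stromelysin 3) was the most uneven, on 0 of 7 male and 4 of 8 female arrays, followed by Adamts12 on 3 male and 1 female arrays and Mmp7 (matrilysin) on 2 male and 0 female arrays, level with Lama2 probe A_43_P20759 on 5 male and 8 female arrays. The Mmp11 signals overlapped between the sexes, and the probe was detected on too few arrays to be tested.

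Between the nostrils, with rat as a block, limma called 0 of the 89 probes at 1% (0% of all) and 0 at 5% (0% of all), and 5 at an unadjusted p under 0.05 (5.62%, against 5.89%). The probes of lowest p, each at an adjusted p of 0.781, were Col23a1 (nostril B minus A, -0.28, A_44_P393521), Adamts19 (-0.23), Fbln1 (-0.15, A_42_P801831), Timp2 (-0.09) and Col18a1 (-0.17, A_44_P1004323). The median over the members was -0.07 against 0.01 for all. Within single rats the nostrils could still lie far apart: the Col1a1 probe A_44_P419137 read 8.56 and 7.77 in nostrils A and B of female 4, the latter the lowest of the 15 arrays, and 9.79 and 9.32 in those of male 2.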

How the data were processed

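Total RNA of 15 olfactory epithelium samples was labeled with Cy3 and hybridized to 1-colour Agilent arrays. The authors extracted each spot's intensity with Feature Extraction 9.5.1.1 and deposited the scanner intensities, with background and spatial trend removed and, per the file headers, no replacement of dim values. The array annotation is on build rn3. The authors' deposited table holds ratio values: 99.58% of those brighter than the array median lay within 2% of the spot over its array and probe medians.

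Outlier spots were left out, spots of a probe averaged, intensities divided by the array median, floored at 0.1 of it and put on the log2 scale (deposited intensity, log2 by re-analysis). Probes detected on at least 7 of 15 arrays were tested with limma 3.58.1 in R 4.3.3 (eBayes with trend, two-sided, Benjamini-Hochberg over all tested probes, at 1% and 5%). The sexes were compared on means per rat, the nostrils with rat as a block, and rats of the same sex by an F-test over 6 contrasts with nostrils as error. These nostrils share an animal, so this p-value measures differences beyond those between the nostrils of a rat, in these 8 rats. It does not separate rat from slide, or from a dissection difference common to both nostrils of a rat.

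A gene among the members stays in the counts and is not reported here by itself. Members, gene lists and tests were chosen with earlier results of these data known. Named were the members of lowest p in each test, the widest-ranging probe of each role, genes with at least 3 probes, and those next to a threshold. All other members given with values, such as Col3a1, Col5a1, Col6a1, Col7a1, Col12a1, Mmp2, Mmp9, Mmp12 to Mmp14, Fn1 and Col4a2, were named after their values were seen, as were the gene lists' examples beyond the 3 of lowest p. Promoter windows and gene names are RefSeq's (GRCr8), which matched 63 of the 88 members with 70 windows. The scripts were tested on simulated data. Alternatives were other scalings, normexp background correction, floor, filters, test and slide block, and leaving out each rat. With 8 rats, the number of animals limits precision.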

Additional observations from a re-analysis of the deposited data

Results flagged for a closer look

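In 4 of 78 sets of the 4 rats of a sex, over the named probes, a single rat lay far from the other 3 of its sex, where chance alone flags about 1 in 20. Lamb1 (A_43_P18993) was 1.72 in male 1 and 2.53 to 2.54 in the other males. Col18a1 (A_44_P1004324) was 1.61 in male 1 and 1.97 to 2.02 in the other males. Lamb3 was low in male 2 with both A_44_P1034201, at 4.28 against 4.66 to 4.74, and A_44_P1034209, at 2.97 against 3.35 to 3.37.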

How the results depend on the processing

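The count of 2 probes past 1% between rats of the same sex was fragile: it was 1 with quantile normalization (1.12%, against 5.26% of all probes), 0 with normexp background correction (0.283% of all), 0 with no detection filter (2.4%), 0 with slide as a block (0.00363%), 0 with the authors' value table (1.29%) and 0 for eBayes without trend (1.47%), and 0 to 4 when a rat was left out (0 without male 5, female 7 or female 8, against 1.59%, 0.888% and 0.674% of all, and 4 without female 3, 4.49% against 3.26%). The 28 past 5% became 0 with normexp (0.671% of all probes), 6 of 127 with no detection filter (4.72%, against 8.58%), 0 with slide as a block (0.116% of all), 14 with the authors' table (15.7%, against 11.7%) and 16 without trend (18%, against 11.6%), and 11 to 36 when a rat was left out (15 without male 5, 14 without female 7, 11 without female 8). Between the sexes the count at 1% was 1 with the 15 arrays as independent samples (1.12%, against 3.74% of all), and at 5% it was 3 with those arrays (3.37%, against 12.6% of all) and 1 with slide as a block (1.12%, against 5.63%), each a smaller share than that of all probes. With slide as a block a sex difference rests on slide 1, where 1 female array lay beside males. The cause of these changes was not tested. The sex difference of Col9a3 A_44_P787524 changed sign with slide as a block (-0.54). The median sex difference of the matrix probes was -0.24 to -0.07 when a rat was left out and -0.09 with no detection filter, against -0.33 with slide as a block, and the nostril counts stayed at 0 under every alternative run. The groups shared no replicate numbers. No paired analysis was possible because males and females are different rats with different numbers. Dim probes limit what can be read, since 39 of the 128 members were not tested.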
